A study of Mus musculus with 6 samples.

Results

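The 7 genes described here, Plxdc2, Gulp1, Antxr1, Triqk, Cfap20dc, Smpdl3a and Ppm1h, were chosen by their measured signal, which was lower on all 3 ILK-T173I arrays than on all 3 wild-type ILK arrays. They are 7 of 22180 genes that have a probe set with exactly 1 gene symbol, and all 7 were among the 13308 genes bright enough to be tested. Because that separation chose them, their own differences are given as a description with no test.

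RNA came from IMCD cells, a mouse epithelial line from the inner medullary collecting duct of the kidney. The ILK-T173I group (3 arrays) carried a lentiviral vector that encodes GFP and the missense variant T173I of ILK, and the wild-type ILK group (3 arrays) carried the same kind of vector with wild-type ILK. All 6 samples had been stimulated with 20 ng/ml EGF over 15 minutes, with extraction 1 hour later. The groups therefore share the ILK vector, GFP and EGF, and no sample without them was analysed here. The lines are stable. Their number in each group is not stated, so a difference between lines and a difference between ILK forms cannot be told apart. The labels call the 3 arrays of each group biological replicates and do not say whether they came from separate cultures, so p-values reflect the spread among arrays, which may be technical.

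ILK, integrin-linked kinase, is a scaffold protein that joins integrins to the actin cytoskeleton at focal adhesions. The 7 genes belong to no single pathway. Plxdc2 and Antxr1 encode transmembrane proteins first described as tumour endothelial markers, and Antxr1 binds collagens outside the cell and actin inside it. Gulp1 encodes an adaptor with a phosphotyrosine-binding domain, the mammalian relative of CED-6, which acts in the engulfment of dying cells in Caenorhabditis elegans. Smpdl3a and Ppm1h encode enzymes, a secreted phosphodiesterase of the acid sphingomyelinase family and a PP2C-type protein phosphatase. Triqk encodes a small membrane protein of the endoplasmic reticulum, and Cfap20dc a protein that shares a domain with the ciliary protein Cfap20.

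The signals are RMA values on the log2 scale, so 1 unit is a 2-fold step, and array medians were alike at 5.45 to 5.52. The lowest 40% of genes by mean over all arrays, at 5.37 or less, were left out of the tests. All 9 epithelial markers lay above that level, Cdh1 and Epcam among them, as did 7 of 12 principal cell markers. The epithelial markers had a summed log2 level of 91.5 to 92.9 on the T173I arrays and 89.5 to 90.3 on the wild-type arrays. The keratins Krt19, Krt8, Krt18 and Krt7 were higher on all T173I arrays than on all wild-type arrays, by 1.62, 0.64, 0.44 and 0.41 (limma adjusted p = 0.45 each). They are 4 of the 9 markers, beside 7.23% of all tested genes that were higher on all T173I arrays. Of the 9, 3 had a negative difference. Muc1 was at 9.30, 6.62 and 7.16 on the T173I arrays, against 8.63, 8.74 and 9.12 on the wild-type arrays. Its difference was -1.14, and that of Epcam -0.17. Aqp2, the water channel that defines principal cells, was at 6.11 ± 0.14 in T173I and 6.07 ± 0.05 in wild type (SD, n = 3 each). The summed log2 level of the principal cell markers was 68.3 to 71.8 on the T173I arrays and 72.2 to 72.9 on the wild-type arrays. Gata3, a collecting duct transcription factor in that list, was at 6.33, 6.12 and 6.47 on the T173I arrays, against 6.91, 7.34 and 6.99 on the wild-type arrays, a difference of -0.78 (limma adjusted p = 0.45). Scnn1g, a sodium channel subunit, was at 7.64, 5.90 and 5.71 on the T173I arrays, against 7.87, 7.28 and 7.69 on the wild-type arrays. Avpr2, the vasopressin receptor in the list, was at 7.20, 6.07 and 6.23 on the T173I arrays, against 6.88, 6.83 and 6.68 on the wild-type arrays. Of the 7 tested principal cell markers, 5 had a negative and 2 a positive difference. Only 1 was lower on all T173I arrays, beside 7.95% of all tested genes. The sums of the epithelial and principal cell lists, and of the endothelial list given below, did not overlap between the groups. Their part in the levels of the 7 genes described here was not tested.

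Plxdc2, a receptor for the secreted factor PEDF, had the largest difference of the 7 genes. Its log2 signal was 6.09, 5.21 and 5.08 on T173I replicates 1, 2 and 3, against 8.36, 7.85 and 7.20 on wild-type replicates 1, 2 and 3. The groups did not overlap, and T173I replicates 2 and 3 lay below the level of 5.37 that marked the dimmest genes. The group means were 5.46 ± 0.55 in T173I and 7.80 ± 0.59 in wild type (SD, n = 3 each), which is 5.08-fold lower in T173I, a fold that rests on dim signals in T173I. Only 1 of the 13308 tested genes had a lower difference than the -2.34 of Plxdc2. In RNA from a whole culture, fewer cells that express a gene and less RNA per cell cannot be told apart, for this and the following genes.

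Gulp1 was at 6.72, 7.74 and 8.04 on the T173I arrays, in replicate order, against 10.01, 9.21 and 9.29 on the wild-type arrays. Here T173I replicate 1 was the lowest array and wild-type replicate 1 the highest. The means were 7.50 ± 0.69 in T173I and 9.51 ± 0.44 in wild type (SD, n = 3 each), a 4.01-fold lower level. A gap of 1.17 separated the lowest wild-type array from the highest T173I array, the widest gap among the 7 genes.

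Antxr1, whose product is also an anthrax toxin receptor, was at 7.17, 7.85 and 8.07 on the T173I arrays, against 9.11, 8.88 and 9.41 on the wild-type arrays. As for Gulp1, the lowest value was that of T173I replicate 1. The means were 7.69 ± 0.47 in T173I and 9.13 ± 0.26 in wild type (SD, n = 3 each), 2.71-fold lower in T173I. Antxr1 and Gulp1 stayed well above the filter level on all arrays.

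Triqk was at 5.75, 4.99 and 5.67 on the T173I arrays, against 7.16, 6.56 and 6.50 on the wild-type arrays. Its difference of -1.27 is the median of the 7 genes, beside a median of -0.0108 over all tested genes. T173I replicate 2 was its lowest array and the only one below the filter level.

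Cfap20dc was at 5.52, 5.27 and 5.52 on the T173I arrays, against 6.28, 6.17 and 6.35 on the wild-type arrays. The arrays of each group lay close together, with an SD of 0.15 in T173I and 0.09 in wild type, around a 1.77-fold lower mean in T173I. Only T173I replicate 2 lay below the filter level.

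Smpdl3a was at 5.89, 5.56 and 5.58 on the T173I arrays, against 6.33, 6.29 and 6.22 on the wild-type arrays. Its T173I replicate 1 lay nearest to the wild-type arrays, with a gap of 0.33, the narrowest of the 7 genes. The mean was 1.52-fold lower in T173I on this probe set. Smpdl3a is the only one of the 7 genes with a second probe set, which was dimmer and read 4.92, 5.33 and 4.99 on the T173I arrays, against 5.21, 5.31 and 5.22 on the wild-type arrays. There the difference was -0.17 and the groups overlapped.

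Ppm1h, the phosphatase, was at 6.17, 6.04 and 6.26 on the T173I arrays, against 6.69, 6.63 and 6.96 on the wild-type arrays. Its T173I arrays were close together (SD 0.11, n = 3) and the mean was 1.51-fold lower than in wild type. No array of either group lay below the filter level.

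**Figure D1:**
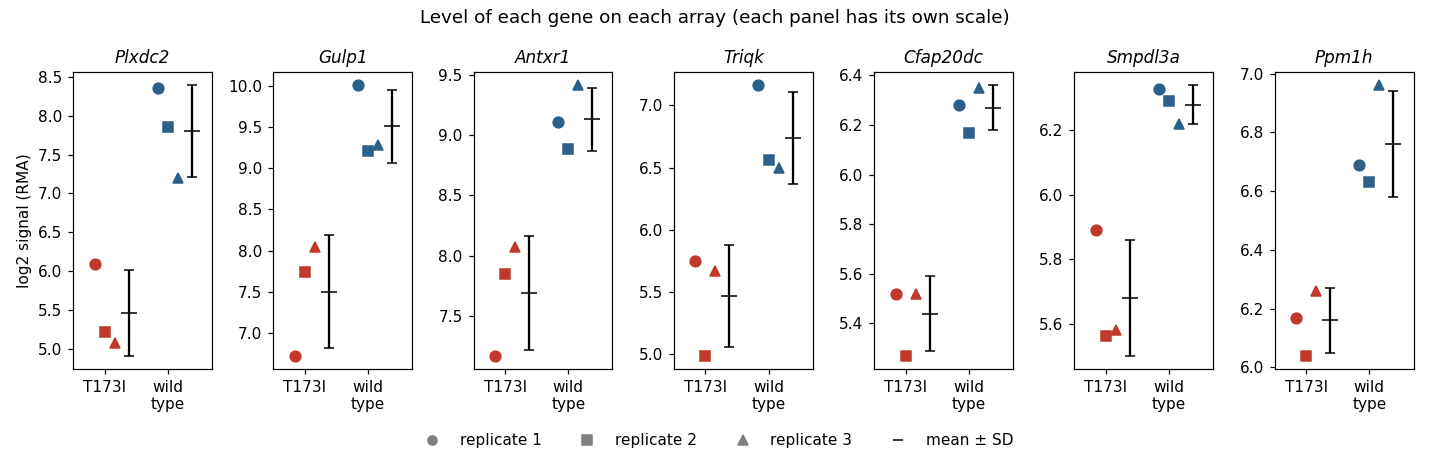
Log2 signal of each of the 7 genes on each array, with ILK-T173I arrays left of wild-type ILK arrays, a symbol per replicate number, and the mean and SD (n = 3) as a bar beside each group; each panel has its own scale. In every panel all 3 T173I arrays lie below all 3 wild-type arrays, and Gulp1 and Antxr1 are lowest on T173I replicate 1.

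Complete separation of this kind was common. Of the tested genes, 1058 (7.95%) had all 3 T173I arrays below all 3 wild-type arrays, and 962 (7.23%) had them all above. The rule fixed this for the 7 genes, so their count of 7 of 7 adds nothing to that background. Of 278 tested genes with a difference at least as low as that of Ppm1h, 146 were separated. Just outside the rule were Prss8, a membrane-anchored serine protease, and Sel1l3, whose highest T173I array and lowest wild-type array had the same value to 2 decimals. Prss8 was at 9.98, 8.95 and 9.87 on the T173I arrays, against 10.50, 10.33 and 9.98 on the wild-type arrays, a difference of -0.67. Sel1l3 was at 5.61, 5.96 and 6.82 on the T173I arrays, against 6.89, 7.14 and 6.82 on the wild-type arrays, a difference of -0.82.

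The 7 genes differed in the place of T173I replicate 1. Over all tested genes the median absolute distance from the wild-type mean was 0.10, 0.19 and 0.14 log2 units on the T173I arrays, in replicate order, and the rule required all of them to lie below wild type here. For Gulp1, replicate 1 went further than its group, 6.88-fold below the wild-type mean, where the mean of T173I replicates 2 and 3 was 3.07-fold below. For Antxr1, it was 3.90-fold below the wild-type mean, where replicates 2 and 3 averaged 2.25-fold below.

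Other genes had a smaller difference on T173I replicate 1. Plxdc2 was 3.28-fold below the wild-type mean on replicate 1 and 6.32-fold below on the mean of replicates 2 and 3, both of them below the filter level. Triqk was 1.99-fold below on replicate 1 and 2.65-fold below on replicates 2 and 3, and Smpdl3a 1.31-fold and 1.63-fold. For Triqk this contrast rested on replicate 2, at 4.99, since replicates 1 and 3 were close, at 5.75 and 5.67. For Cfap20dc and Ppm1h the values differed little, with replicate 1 only 0.13 and 0.02 log2 units above the mean of replicates 2 and 3.

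Put as a share of the distance from the wild-type mean to the mean of T173I replicates 2 and 3, replicate 1 covered 55.4% for Smpdl3a, 64.5% for Plxdc2 and 70.4% for Triqk. It covered 85.3% for Cfap20dc, 96.5% for Ppm1h, 167% for Antxr1 and 172% for Gulp1. The median was 85.3% for the 7 genes. Among all 498 tested genes whose replicates 2 and 3 averaged at least 0.61 below wild type, the amount for Ppm1h, the median share was 15.9%. Among the 198 of these that also satisfied the separation rule it was 41.5%. Among the 135 of those with a difference at least as low as that of Ppm1h it was 46.7%. Replicate 1 was the highest T173I array for 4 of the 7 genes, against 57.8% of all genes separated downwards and 39.7% of all tested genes. The 4 included Cfap20dc, whose replicates 1 and 3 differed by less than 0.01, and with each of 3 other normalizations the count was 3. One array against a pair has no replicate test, so these values describe these arrays.

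**Figure D2:**
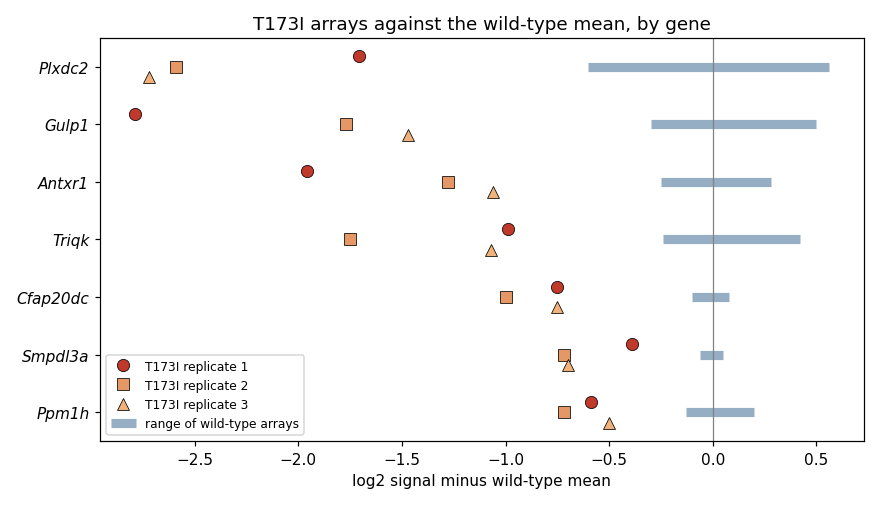
Log2 signal minus the wild-type mean for each T173I array (points) and the range of the wild-type arrays (bar), by gene. Replicate 1 is farthest from wild type for Gulp1 and Antxr1 and nearest for Plxdc2, Triqk and Smpdl3a.

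The wild-type arrays also differed among themselves for the genes with the largest differences. Plxdc2 had a range of 1.17 over the wild-type arrays, with replicate 1 highest and replicate 3 lowest, and Gulp1 and Triqk were highest on wild-type replicate 1 as well. Antxr1, Cfap20dc and Ppm1h were highest on wild-type replicate 3. The median SD over all tested genes was 0.160 in T173I and 0.0983 in wild type, and the SDs of Plxdc2, Gulp1, Antxr1 and Triqk were above both.

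None of the tested genes had an adjusted p under 0.05 in limma's comparison of T173I with wild type, 0% of 13308, and 1357 (10.2%) had an unadjusted p under 0.05, 707 lower (5.31%) and 650 higher (4.88%). Without T173I replicate 1, 156 genes passed the adjusted threshold, 65 of them lower, and without any other array 0 did. The close relatives of the 7 genes, which the rule did not choose, were read against this background. Antxr2, the other widely expressed anthrax toxin receptor, was at 9.98 ± 0.23 in T173I and 9.97 ± 0.12 in wild type (SD, n = 3 each). Its difference of 0.01 had a 95% interval of -0.32 to 0.33 and a limma adjusted p of 0.99, beside the -1.44 of Antxr1.

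Plxdc1, the relative of Plxdc2, was too dim to be tested, at 5.41 ± 0.18 in T173I and 5.27 ± 0.35 in wild type (SD, n = 3 each). Smpdl3b, a lipid-anchored relative of Smpdl3a, had a difference of 0.04 with an interval of -0.27 to 0.35. Smpd1, the lysosomal acid sphingomyelinase, had a difference of -0.51 (limma adjusted p = 0.49). It was at 8.83, 8.33 and 8.71 on the T173I arrays, against 9.48, 9.11 and 8.80 on the wild-type arrays, so that the groups overlapped narrowly. Cfap20, a protein of the ciliary axoneme, differed by -0.03 (interval -0.26 to 0.20).

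The PP2C phosphatases related to Ppm1h had values on both sides. Ppm1j, one of its closest relatives, was at 7.57, 7.59 and 7.36 on the T173I arrays, against 6.98, 7.06 and 7.02 on the wild-type arrays. All 3 T173I arrays were higher, the difference was 0.49 (interval 0.27 to 0.71), and the limma adjusted p was 0.45. Ppm1m, another close relative, differed by 0.12 (interval -0.08 to 0.31). Ppm1l, an endoplasmic reticulum phosphatase linked to ceramide transport, was at 7.85, 7.67 and 7.29 on the T173I arrays, against 8.12, 8.27 and 8.47 on the wild-type arrays. All 3 T173I arrays were lower, with a difference of -0.69 and a limma adjusted p of 0.45. Ilkap, a phosphatase that binds ILK in human cells, was at 8.37 ± 0.12 in T173I and 8.57 ± 0.12 in wild type (SD, n = 3 each), with a limma adjusted p of 0.52. All 3 of its T173I arrays were lower too, with a gap of only 0.01 to the lowest wild-type array.

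**Figure D3:**
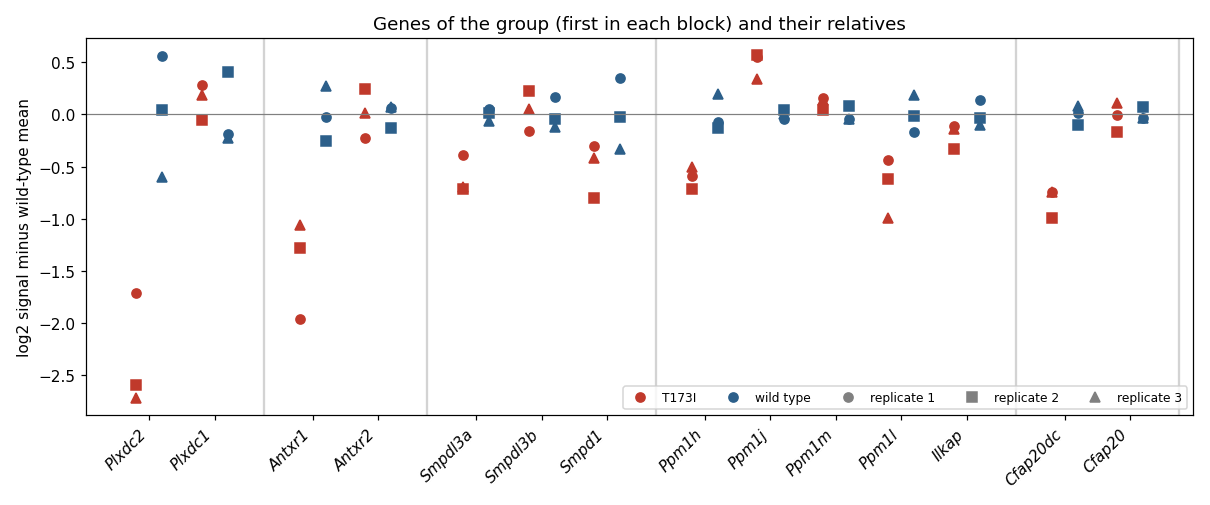
Log2 signal minus the wild-type mean on each T173I array (red) and wild-type array (blue) for 5 genes of the group, each followed by its relatives. Antxr2, Smpdl3b, Ppm1m and Cfap20 have overlapping groups around 0. Ppm1j lies above its wild-type arrays, Ppm1l below them, and Ilkap below them by a gap of only 0.01.

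Lists of genes that act with the 7 were then counted, the 7 themselves left out. Of 24 tested engulfment and clearance genes, 0 passed limma's adjusted threshold. At an unadjusted p under 0.05 there were 3 lower and 1 higher, beside 5.31% and 4.88% of all tested genes, shares that apply to the lists below as well. All T173I arrays were lower for 4 of the 24 and higher for 1, beside 7.95% and 7.23% of all tested genes. The median difference was -0.0464, beside -0.0108 over all tested genes. Itgb5, an integrin subunit that takes part in uptake of dying cells, was at 10.64 ± 0.33 in T173I and 11.10 ± 0.05 in wild type, and Mfge8, its bridging ligand, at 10.22 ± 0.11 in T173I and 10.50 ± 0.14 in wild type (SD, n = 3 each). Itgb3, the integrin subunit that pairs with the same alpha chain, was higher by 0.39. Their limma adjusted p-values were 0.47, 0.48 and 0.45.

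Of 14 tested anthrax receptor and matrix ligand genes, 0 passed limma's test and 0 had an unadjusted p under 0.05, with 7 differences on either side of 0 and a median of -0.0115. Lrp5, a Wnt co-receptor, had the smallest unadjusted p, with a difference of -0.36 (interval -0.78 to 0.06), followed by the laminin chain Lama5 (0.18) and the collagen chain Col6a1 (0.17). Of 7 tested plexin domain and tumour endothelial marker genes, 0 passed, 1 had a lower signal at an unadjusted p under 0.05 and the median was 0.0391. That gene was Tns3, a focal adhesion tensin, at 8.41, 8.03 and 7.85 on the T173I arrays, against 8.52, 8.49 and 8.68 on the wild-type arrays (limma adjusted p = 0.45). Serpinf1, which encodes PEDF, was higher by 0.36 (limma adjusted p = 0.49). It was dim, at 5.66, 5.44 and 5.74 on the T173I arrays, against 5.03, 5.19 and 5.54 on the wild-type arrays. The groups overlapped, and its wild-type mean of 5.25 lay below the filter level.

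Of 17 tested PP2C genes, 0 passed limma's test, with 1 lower and 2 higher at an unadjusted p under 0.05 and a median of -0.0613. Besides Ppm1j and Ppm1l these included Pdp2, a phosphatase of pyruvate dehydrogenase, which was higher by 0.35. The list around Ppm1h's Rab substrates, which human PPM1H dephosphorylates, had 0 of 14 past the threshold, 0 lower and 2 higher at an unadjusted p under 0.05, and a median of -0.0753. Mapk8ip3, a motor adaptor, was higher by 0.41 and Lrrk1, a kinase of the LRRK family, by 0.42 (limma adjusted p = 0.45 and 0.49). Spag9, a related adaptor, differed by 0.37 (limma adjusted p = 0.52).

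Of 24 tested genes of sphingomyelin and ceramide metabolism, 0 passed, with 2 lower and 1 higher at an unadjusted p under 0.05 and a median of -0.0465. Acer3, an alkaline ceramidase, was at 7.55, 8.19 and 8.21 on the T173I arrays, against 7.44, 7.45 and 7.44 on the wild-type arrays, and T173I replicate 1 lay close to wild type. Without that array its difference was 0.76 and passed limma's threshold (adjusted p = 0.0255), against 0.54 and an adjusted p of 0.46 with it. In that fit Acer3 was 1 of 122 tested related genes to pass, beside 156 of all 13308 tested genes. Cerk, ceramide kinase, differed by -0.58 (limma adjusted p = 0.49).

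Of 10 tested genes of the LXR response, which induces SMPDL3A in human macrophages, and of cyclic dinucleotide handling, 0 passed. At an unadjusted p under 0.05 there were 2 lower and 1 higher, with a median of -0.0431. Cgas, which makes a cyclic dinucleotide that human SMPDL3A can cleave, was at 8.67, 8.69 and 8.51 on the T173I arrays, against 8.98, 8.85 and 8.85 on the wild-type arrays. Its difference was -0.27 (limma adjusted p = 0.45). The LXR targets Scd1 and Mylip differed by 0.66 and -0.87, on opposite sides. Of 12 tested Cfap20 relatives and ciliary CFAP genes, 0 passed and 0 had an unadjusted p under 0.05, with a median of 0.0372. Cfap36, Wdr90 and Cfap298 had differences of 0.13, -0.36 and 0.08.

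Because Antxr1 and Plxdc2 are also known from stroma and vessels, markers of those cells were read beside them. Of 9 fibroblast markers 4 lay above the filter level, and their summed log2 level was 46.0 to 49.4 on the T173I arrays and 45.6 to 48.4 on the wild-type arrays. Postn, a matrix protein in that list, stood apart at 8.05 on T173I replicate 1, with 5.49 and 4.30 on the other T173I arrays, against 4.65, 6.05 and 6.26 on the wild-type arrays. The 4 tested fibroblast markers had 1 negative and 3 positive differences. Among those too dim to be tested, Pdgfra, Pdgfrb, Col3a1 and Dcn differed by -0.16, -0.23, -0.10 and -0.37, and Lum by 0.27. Of 8 endothelial markers 2 lay above the filter level, with a sum of 40.4 to 41.9 on the T173I arrays and 39.8 to 40.2 on the wild-type arrays. These sums did not overlap between the groups. The 2 tested endothelial markers had 1 negative and 1 positive difference. Pecam1 and Cdh5, which define endothelium, were at 5.37 and 5.33 in T173I and 5.26 and 5.27 in wild type, with means over all arrays below the filter level. Flt1, a VEGF receptor and the brightest gene of the list, was at 5.71, 6.72 and 6.68 on the T173I arrays, against 5.49, 5.65 and 5.46 on the wild-type arrays (limma adjusted p = 0.45). Of 6 macrophage markers 3 lay above it, with a sum of 34.1 to 35.3 on the T173I arrays and 33.7 to 35.1 on the wild-type arrays, and Ptprc, which marks all leukocytes, was at 3.69 in T173I and 3.70 in wild type. The 3 brighter ones did not overlap between the groups, Cd68, a lysosomal protein, being higher by 1.10 and the receptors Csf1r and Cx3cr1 differing by -0.78 and -0.30 (limma adjusted p = 0.45 each). Of all tested genes, 7.95% were lower and 7.23% higher on all T173I arrays. Ptprc, Adgre1 and Itgam, too dim to be tested, overlapped between the groups. Of 5 intercalated cell markers 3, and of 5 proximal tubule markers 2, lay above the level. Their sums were 25.2 to 25.9 and 25.8 to 26.9 on the T173I arrays, against 25.5 to 26.3 and 26.4 to 26.6 on the wild-type arrays. The part of any other cell type in the levels of the 7 genes was not tested.

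Profiles over the 6 arrays were compared by the root-mean-square difference between genes, each centred on its own wild-type mean. A small difference is easier to reach for genes with small differences, so it is compared only for 1 gene at a time, and it describes the 6 arrays without a test. Among the 7 genes, Gulp1 was nearest to Antxr1, at 0.51 log2 units, and Plxdc2 was nearer to Gulp1 (0.78) than to Triqk (0.84). Smpdl3a and Ppm1h differed by 0.17.

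Over all named tested genes, Plxdc2 was most like Nrep, a small intracellular protein gene (0.40), Slc1a1, a glutamate transporter (0.53), and Cldn8, a claudin of collecting duct tight junctions (0.64). Nrep was at 8.57, 7.08 and 7.67 on the T173I arrays, against 10.50, 9.41 and 9.23 on the wild-type arrays. Gulp1 was most like Nipal2 (0.32), then Chrdl1, an antagonist of BMP ligands (0.41), then Antxr1. Nipal2 was at 7.20, 7.99 and 8.48 on the T173I arrays, against 9.95, 9.17 and 9.22 on the wild-type arrays. It was lowest on T173I replicate 1, as Gulp1 was, and was also second nearest to Antxr1 (0.33). The gene nearest to Antxr1 was Nfia, a transcription factor (0.18), at 4.80, 5.53 and 5.62 on the T173I arrays, against 6.33, 6.37 and 7.07 on the wild-type arrays. Nfia was dim in T173I, where its mean of 5.32 lay below the filter level. Cdh13, a cadherin anchored by lipid, came next (0.36).

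Triqk was most like Itga2, the collagen-binding integrin subunit (0.18), at 8.11, 7.42 and 8.50 on the T173I arrays, against 9.88, 9.14 and 8.84 on the wild-type arrays. Ctso, a cathepsin (0.21), and Plekhg1 (0.23) followed. Cfap20dc was most like Tmem30b, a subunit of lipid flippases (0.13), then Cdkn1c, a cyclin-dependent kinase inhibitor, and Zfp704 (0.15 each). Smpdl3a was most like Egr1, an immediate early transcription factor of the EGF response (0.06), at 10.47, 10.08 and 10.21 on the T173I arrays, against 10.82, 10.85 and 10.74 on the wild-type arrays. Fhod3, a formin, and Zkscan1 followed at 0.07 and 0.08. Ppm1h was most like Myo9a, an unconventional myosin (0.10), then Rchy1, a ubiquitin ligase, and Fmnl2, a formin (0.11 each).

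**Figure D4:**
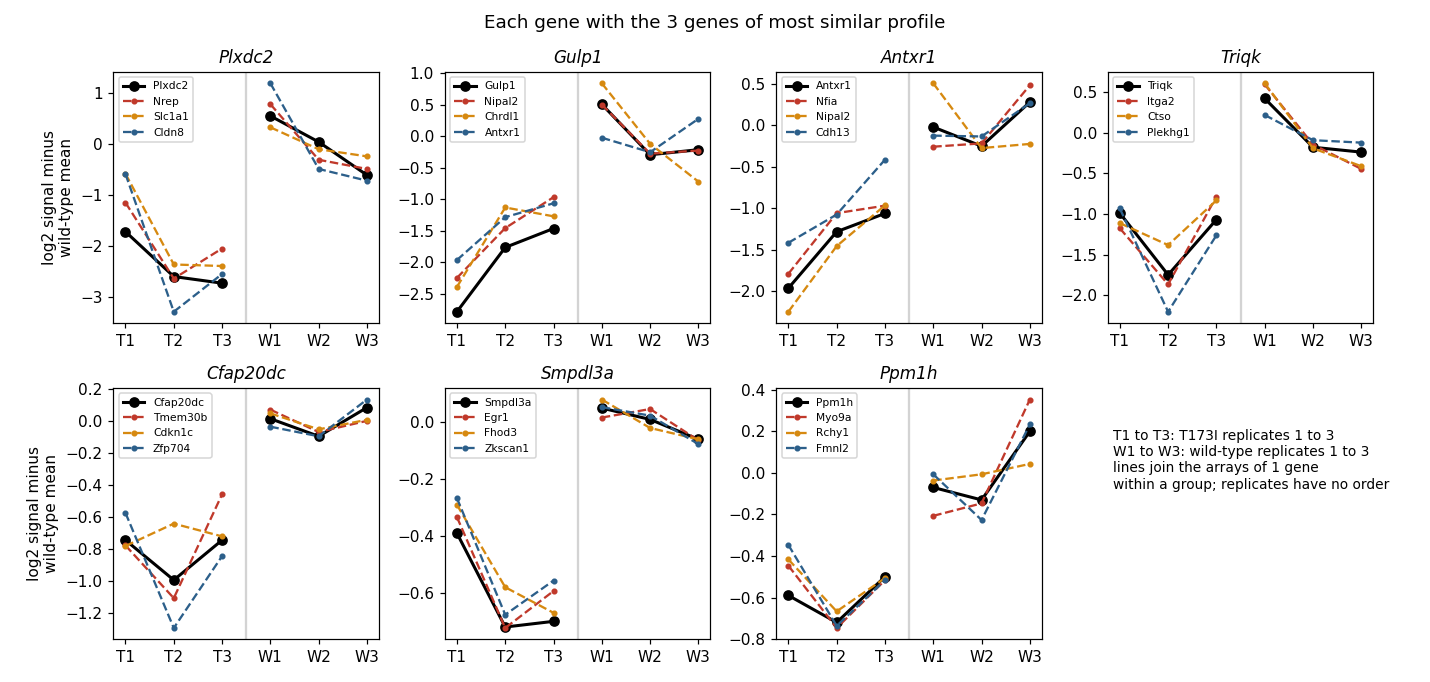
Log2 signal minus the wild-type mean on the 6 arrays for each of the 7 genes (black) and the 3 named genes with the smallest root-mean-square difference (dashed); T is T173I, W is wild type. Nipal2 and Antxr1 share the low T173I replicate 1 of Gulp1, whereas the genes nearest to Plxdc2 and Smpdl3a are highest there.

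The 7 genes lie on 6 chromosomes (2, 1, 6, 4, 14 and 10), with Smpdl3a and Ppm1h both on chromosome 10 but not among each other's nearest measured genes. In the RefSeq gene order of mouse assembly GRCm38.p6, the 2 nearest measured genes on either side of each gave 28 neighbours, of which 11 were bright enough to test. None of the 11 passed limma's adjusted threshold, and 1 had an unadjusted p under 0.05, beside 10.2% of all tested genes. That was Nsun6, an RNA methyltransferase gene before Plxdc2, at 6.79, 6.57 and 6.43 on the T173I arrays, against 6.97, 6.83 and 6.85 on the wild-type arrays, a difference of -0.29 (limma adjusted p = 0.48). The median difference of the 11 was 0.01 and the lowest was -0.80, for Oit1 beside Cfap20dc. Oit1 was at 8.50, 5.88 and 7.87 on the T173I arrays, against 8.08, 7.98 and 8.59 on the wild-type arrays, so that its difference rested on T173I replicate 2.

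The other tested neighbours differed by -0.08 to 0.20. Gfpt1, the first enzyme of hexosamine synthesis, lies near Antxr1 and differed by 0.10 (interval -0.07 to 0.27). Ercc5, a DNA repair nuclease near Gulp1, differed by -0.02 (interval -0.21 to 0.18). Cibar1, near Triqk, differed by 0.09 (interval -0.20 to 0.37), and Mon2, near Ppm1h, by 0.12 (interval -0.05 to 0.29).

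**Figure D5:**
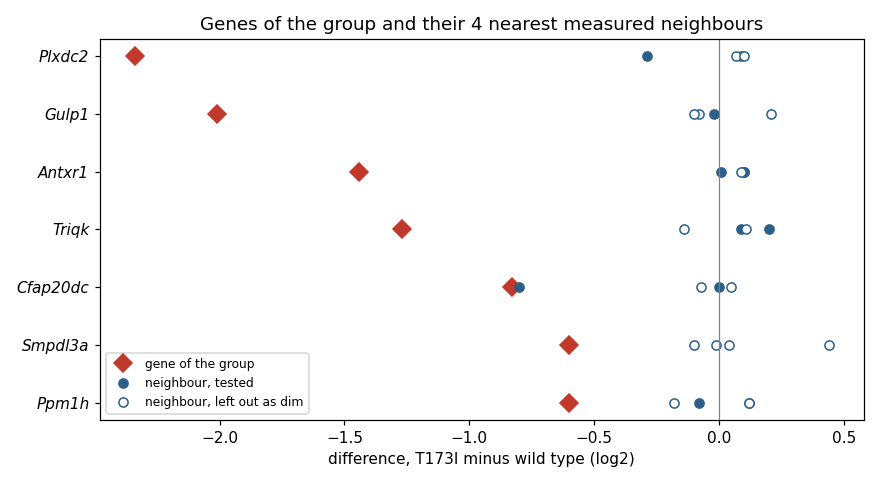
Difference between T173I and wild type (log2) for each of the 7 genes (red diamond) and its 4 nearest measured neighbours (circles, open where the gene was too dim to test). Apart from Oit1 beside Cfap20dc, at -0.80, the neighbours lie between -0.29 and 0.44.

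Most of the 7 genes are long. The genomic span was 405 kb for Plxdc2, 268 kb for Ppm1h, 245 kb for Gulp1, 235 kb for Cfap20dc and 202 kb for Antxr1 in that assembly, against 74.6 kb for Triqk and 17.3 kb for Smpdl3a. Over 100 kb were 5 of the 7 genes (71.4%), beside 11.5% of the 13236 tested genes with a span, whose median was 20.6 kb. Among the 146 tested genes separated downwards with a difference at least as low as that of Ppm1h, the share was 30.1%. Their median was 36.3 kb.

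Promoter sequences from RefSeq (GRCm38.p6) were at hand for 3 of the 7 genes, Gulp1, Cfap20dc and Ppm1h, and are shown as a description. The rule chose these genes as lower, so their being lower is no sign of shared regulation. Each window runs from 250 bases before to 50 bases after the gene start, 5′ to 3′ on the gene's strand, at chr1:44551421-44551720 (+) for Gulp1, chr14:8666241-8666540 (-) for Cfap20dc and chr10:122678512-122678811 (+) for Ppm1h. Capitals mark a motif match.
Gulp1: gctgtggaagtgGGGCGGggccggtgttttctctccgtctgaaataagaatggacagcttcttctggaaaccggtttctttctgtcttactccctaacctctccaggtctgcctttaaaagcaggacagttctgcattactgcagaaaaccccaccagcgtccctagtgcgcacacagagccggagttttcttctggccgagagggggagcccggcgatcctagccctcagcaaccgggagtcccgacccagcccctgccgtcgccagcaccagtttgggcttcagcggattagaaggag
Cfap20dc: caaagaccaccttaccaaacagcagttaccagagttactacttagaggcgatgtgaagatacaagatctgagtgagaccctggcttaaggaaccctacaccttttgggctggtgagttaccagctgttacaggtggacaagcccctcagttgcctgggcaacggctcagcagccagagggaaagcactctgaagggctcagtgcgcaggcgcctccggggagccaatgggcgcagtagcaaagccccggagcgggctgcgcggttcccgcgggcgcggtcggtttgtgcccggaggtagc
Ppm1h: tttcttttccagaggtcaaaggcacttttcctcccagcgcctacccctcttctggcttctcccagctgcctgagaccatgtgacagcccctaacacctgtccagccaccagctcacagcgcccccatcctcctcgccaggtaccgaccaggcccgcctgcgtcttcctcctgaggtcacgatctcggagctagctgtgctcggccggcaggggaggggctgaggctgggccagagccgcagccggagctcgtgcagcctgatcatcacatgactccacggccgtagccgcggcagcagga

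Motifs of factors that act after growth factor signals or in kidney epithelium were searched on both strands. The AP-1 site TGANTCA, the ETS site CCGGAAG, the TEAD site GGAATG, the GATA site AGATAA and the SRF CArG box had no match in the 3 windows. They occur in 7.81%, 8.86%, 14.7%, 11.2% and 1.63% of all 32851 promoter windows. At such shares, the absence of a match in 3 windows says little. The GC box GGGCGG was found in 1 of the 3, Gulp1, and in 35.7% of all windows. The 3 windows held 15, 16 and 17 CpG dinucleotides in Gulp1, Cfap20dc and Ppm1h, beside a median of 7 over all windows, and had a GC content of 57.7%, 59.7% and 64.7%, beside a median of 52.7%.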

How the data were processed

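The table holds log2 signals that the authors deposited. The submitters' processing notes name RMA, which corrects background, makes the arrays' signal distributions alike and summarises each probe set, so a shift of most genes one way would not be seen. The number of arrays limits the precision. Of 41345 probe sets, 23521 have 1 symbol in the platform annotation, and none with several was used. The brightest probe set stood for a gene.

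T173I was compared with wild type with limma 3.58.1 in R 4.3.3 (lmFit, eBayes, no covariate, two-sided, all 6 arrays), with Benjamini-Hochberg adjustment over 13308 genes at 0.05. The script was tested on simulated data. One T173I title lacks the T, and its transduction label reads ILK-T173I. Members and lists were chosen with earlier results of these data known. The rule named the 7 genes, their relatives, up to 3 genes per list with the smallest unadjusted p, neighbours, the 3 most similar profiles and 2 genes just outside the separation. Markers given with values were chosen after their values were seen, and predicted genes were not named. A planned comparison of protein sequences was not made. Same-numbered arrays had correlations of deviations of 0.049, 0.067 and 0.048, so numbers were not treated as pairs.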

Additional observations from a re-analysis of the deposited data

How the results depend on the processing

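The 7 differences kept their sign under all alternatives that gave a value, which were the filter, 3 normalizations, the mean of probe sets, the eBayes prior, array weights, the replicate block and leaving out each array. Because the rule chose separated genes, the sign could change only under the 3 normalizations and, for Smpdl3a, the mean of probe sets. Under the other alternatives the kept sign was fixed in advance. Their ranges were -2.66 to -2.06 for Plxdc2, -2.28 to -1.62 for Gulp1, -1.62 to -1.16 for Antxr1, -1.41 to -1.03 for Triqk, -0.88 to -0.74 for Cfap20dc, -0.71 to -0.39 for Smpdl3a and -0.66 to -0.50 for Ppm1h. The -0.39 of Smpdl3a came from averaging its 2 probe sets. With the lowest 60% of genes left out, 2 of the 7 genes remained, Gulp1 and Antxr1, with a median difference of -1.72, against -1.27 for all 7. All 7 stayed separated under the 3 normalizations. Leaving out an array cannot undo the separation, and the median difference was then -1.37 to -1.03. Limma called 0 genes in all, and 0 of the related genes, under each alternative except without T173I replicate 1. The counts over the 6 fits that each left out 1 array were 0 to 156 in all, 65 of the 156 lower, and 0 to 1 of 122 tested related genes, the 1 being Acer3. With the replicate block 0 genes passed, the median difference of the 7 genes was -1.27, and no other call changed.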

Other observations

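Long genes were more common among the genes that were much lower in T173I than among all tested genes. Of 146 genes separated downwards with a difference at least as low as that of Ppm1h, 30.1% spanned more than 100 kb, with a median of 36.3 kb. Of 146 genes separated upwards by at least the same amount, 18.6% of the 145 with a span did so, with a median of 27.5 kb. Over all tested genes the share was 11.5%. Among all 1058 genes separated downwards, whatever the size, it was 13.4%, and among the 962 separated upwards 12.7%. These shares describe genes chosen on these arrays, and no test was made.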
